A study of Mus musculus with 12 samples.

Results

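The Ikaros family genes Ikzf1 (Ikaros), Ikzf2 (Helios), Ikzf3 (Aiolos) and Ikzf4 (Eos) were followed through 12 ATAC-seq peak lists of mouse CD4 T cells, in which a peak marks DNA that the Tn5 transposase could reach. Peaks were pooled over the 12 lists and joined into 1 region wherever they overlapped by 1 bp or more, and a region was counted to a gene when its midpoint lay in the gene body or, outside every gene body, when that gene had the nearest end within 50 kb. By this rule 73 of 76882 regions belonged to the 4 genes. Ikzf2 had 34 regions, Ikzf1 had 22, Ikzf3 had 13 and Ikzf4 had 4. The genes were chosen by name, with earlier results of these data known.

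The mice were Balb/c. CD4 T cells carrying the transgenic 6.5TCR, which is specific for HA, were transferred into Aire-HA hosts, and 14 days after transfer bone marrow T cells were sorted into groups of 2 libraries each. Donor cells lacked CD45.1 and carried CD45.2; those without CD25 had not converted (donor Tconv), and those with CD25 and LAP, the latency peptide of TGF-beta, had converted to regulatory T cells (donor Treg). Host conventional cells (host Tconv) were CD45.1+CD45.2- and lacked CD25. Host regulatory cells were CD45.1+CD45.2+, CD25+ and CTLA4+, and were divided into Nrp1- (host pTreg) and Nrp1+ (host tTreg) cells. The iTreg group was induced in vitro and sorted as CD25+LAP+. All groups were sorted as CD3+CD4+. Host Tconv and host regulatory cells thus differed in CD45.2 as well as in CD25, and Nrp1 stands for thymic or peripheral origin only as far as that marker does. Donor Treg and iTreg were gated on LAP, host Treg were gated on CTLA4, and no group was gated on Foxp3 or on a member of the family.

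Ikaros family proteins are zinc finger transcription factors that bind DNA through N-terminal fingers and pair with each other through C-terminal fingers. They recruit the NuRD, Sin3 and CtBP complexes to chromatin and act in lymphocyte development. Helios is abundant in regulatory T cells and helps to keep their identity, Eos acts with Foxp3 in gene silencing, Ikaros is needed throughout the lymphoid lineage, and Aiolos is best known from B cells and helper T cell subsets.

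Promoter windows of 250 bases before to 50 bases after a transcription start were read from the RefSeq sequence table (GRCm38.p6, which has the coordinates of mm10). The table matched 1 of the 4 genes, Ikzf1, with 2 windows, and it held a further window, of the gene Gm26876, inside the Ikzf4 region described below. They are shown because they lie inside peaks that differed between libraries or were present in every library. Capitals mark matches to TTCNNNGAA, the core of the STAT element, read on both strands; N is any base.
Ikzf1, chr11:11685675-11685974, plus strand: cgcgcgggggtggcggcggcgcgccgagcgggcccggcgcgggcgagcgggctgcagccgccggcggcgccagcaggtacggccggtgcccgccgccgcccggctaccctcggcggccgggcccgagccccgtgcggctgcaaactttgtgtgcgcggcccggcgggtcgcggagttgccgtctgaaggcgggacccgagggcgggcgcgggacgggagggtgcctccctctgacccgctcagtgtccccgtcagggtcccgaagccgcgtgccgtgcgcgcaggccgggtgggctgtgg
Ikzf1, chr11:11689927-11690226, plus strand: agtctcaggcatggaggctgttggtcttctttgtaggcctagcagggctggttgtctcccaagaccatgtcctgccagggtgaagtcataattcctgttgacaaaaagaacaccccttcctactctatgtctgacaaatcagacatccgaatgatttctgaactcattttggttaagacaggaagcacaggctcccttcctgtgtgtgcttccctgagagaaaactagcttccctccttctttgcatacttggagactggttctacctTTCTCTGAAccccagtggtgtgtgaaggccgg
Gm26876, chr10:128645634-128645933, plus strand: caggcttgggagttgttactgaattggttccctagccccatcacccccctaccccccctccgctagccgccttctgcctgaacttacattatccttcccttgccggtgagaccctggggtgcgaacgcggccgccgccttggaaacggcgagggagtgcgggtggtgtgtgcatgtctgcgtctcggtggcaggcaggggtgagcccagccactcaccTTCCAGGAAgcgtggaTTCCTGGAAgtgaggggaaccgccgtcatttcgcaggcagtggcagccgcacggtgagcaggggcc

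The first Ikzf1 window was 81.3% G or C, against a median of 52.7% over all windows of the table, and held no match to any of the 5 motifs searched. The second Ikzf1 window had 1 match to TTCNNNGAA, from its base 269, and the Gm26876 window had 2, from bases 219 and 235. Over all 32851 windows of this length, 8.3% held TTCNNNGAA, 25.6% TGGGAA (the Ikaros family core), 16.8% TGTGGT (Runx), 7.81% TGANTCA (AP-1) and 3.65% GTAAACA (forkhead). A match describes letters and is not a binding site. The first Ikzf1 window lay whole inside a peak in 10 libraries and outside any peak in donor Tconv replicate 1 and host Tconv replicate 2. The second lay whole inside a peak in all 12 libraries. The Gm26876 window was whole inside a peak in 11 libraries, with 271 of its 300 bases covered in host tTreg replicate 1.

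The 12 lists held from 28394 to 63207 peaks and covered from 16.9 to 42.6 Mb, with host tTreg replicate 1 lowest and iTreg replicate 2 highest. Covered lengths per gene are therefore given after scaling every library to the mean total. Unscaled, the median log2 difference of all 12040 genes tested moved from 0.129 to -0.317 for donor Treg against donor Tconv and from -0.175 to 0.594 for iTreg against donor Treg. Among genes called in these 2 comparisons the share of higher ones moved from 44.6% to 2.56% and from 34% to 99.2%. It moved from 48.8% to 18.2% for host pTreg and from 47.5% to 6.82% for host tTreg, both against host Tconv. How deeply each library was read is unknown, and absence of a peak does not show closed chromatin. In bulk libraries a weaker opening in all cells cannot be told apart from an opening in fewer cells. Library names carry the run code BW13 in the donor groups and host Tconv, DR31 in host pTreg and host tTreg, and none in iTreg, and a number of at most 17000 in in vivo Treg libraries and of 42000 to 50000 in the others. Any difference of in vivo Treg from conventional cells, of donor from host Treg, or of iTreg from donor Treg cannot be told apart from that number or that code. All 7 T and CD4 markers had a peak in every library. Of 2 CD8 markers, both had a peak in every conventional and iTreg library (1.58 to 2.14 kb in sum), and in vivo Treg libraries had at most 1 (0 to 0.7 kb), with Cd8a at 0. Of markers of other cells, 1 to 3 of 5 B cell markers had a peak (0.32 to 2.52 kb in sum, Cd79a at 0 in all libraries), 2 or 3 of 3 NK markers (4.49 to 6.29 kb), 3 or 4 of 4 erythroid markers (1.79 to 3.1 kb, Hba-a1 at 0 outside iTreg) and 3 of 3 progenitor markers (3.35 to 8.02 kb). Of 5 myeloid markers 3 or 4 had a peak, with 2.92 to 4.26 kb in in vivo Treg and 5.72 to 7.01 kb in the other libraries, and Csf1r at 0 throughout. Their part in the results was not tested. The 5 Treg markers (Foxp3, Il2ra, Ctla4, Tnfrsf18 and Nrp1) covered 37.6 to 48.2 kb in total in the in vivo regulatory libraries, 16.8 to 20.5 kb in the conventional ones and 25.1 to 26 kb in iTreg; Il2ra, Ctla4 and Nrp1 encode sorted proteins.

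Ikzf2 lies at chr1:69531207-69687351 (mm10) and encodes Helios. Peaks covered 2.53-fold more of its regions in donor Treg than in donor Tconv, 4.2-fold more in host pTreg and 4.54-fold more in host tTreg than in host Tconv, and the iTreg libraries lay in the range of the conventional ones. The scaled covered length was 6.76 and 6.42 kb in donor Tconv, 2.96 and 5.9 kb in host Tconv, 16.5 and 17.3 kb in donor Treg, 18 and 18.1 kb in host pTreg, 18.8 and 20.3 kb in host tTreg, and 4.69 and 4.61 kb in iTreg. All 6 in vivo regulatory libraries lay above all other libraries, with no overlap, and both iTreg libraries lay within the range of host Tconv. The share of all genes or regions that split libraries like this, by length, width or region count, was not computed here or below. From the highest group to the lowest, the order was host tTreg (19.5 ± 1 kb, SD, n = 2), host pTreg (18.1 ± 0.095 kb), donor Treg (16.9 ± 0.549 kb), donor Tconv (6.59 ± 0.243 kb), iTreg (4.65 ± 0.055 kb) and host Tconv (4.43 ± 2.08 kb).

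**Figure D1:**
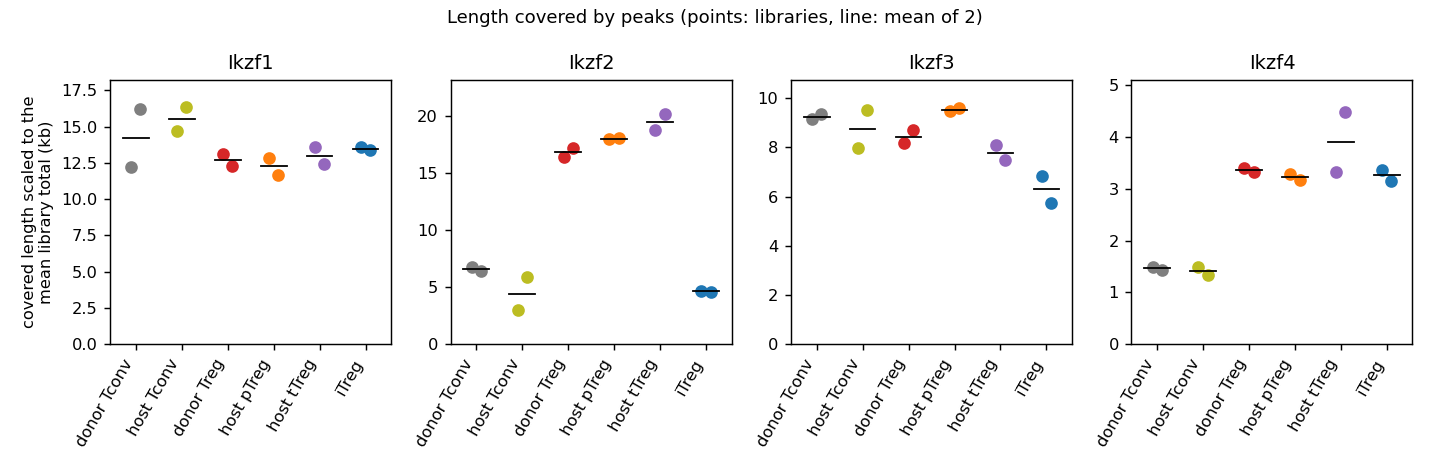
Length covered by peaks, scaled to the mean library total (kb, vertical axis), in the 6 groups for each gene; points are single libraries and lines the means of 2. For Ikzf2 the 6 in vivo regulatory libraries sit between 16.5 and 20.3 kb, and the other 6 between 2.96 and 6.76 kb.

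Covered lengths were compared as log2 (scaled bp + 150 bp) with limma, fitted on all 12040 protein-coding genes with a mean of at least 500 bp, with Benjamini-Hochberg adjustment over all of them. The Ikzf2 difference was 1.34 (SE 0.22, adjusted p = 0.00213, limma) for donor Treg against donor Tconv. It was 2.07 (SE 0.22, adjusted p = 8.78e-05, limma) for host pTreg and 2.18 (SE 0.22, adjusted p = 4.15e-05, limma) for host tTreg, both against host Tconv and so with shared control libraries. Over all genes, 6.39%, 9.19% and 11.4% were called higher in these 3 comparisons. iTreg lay below donor Treg by a log2 difference of -1.82 (SE 0.22, adjusted p = 1.41e-04, limma), where 30.3% of all genes were called lower. Without scaling the donor difference fell to 0.85 (adjusted p = 0.175, limma) and that of iTreg was -0.999 (adjusted p = 0.0542, limma), so both calls rest on the scaling.

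**Figure D2:**
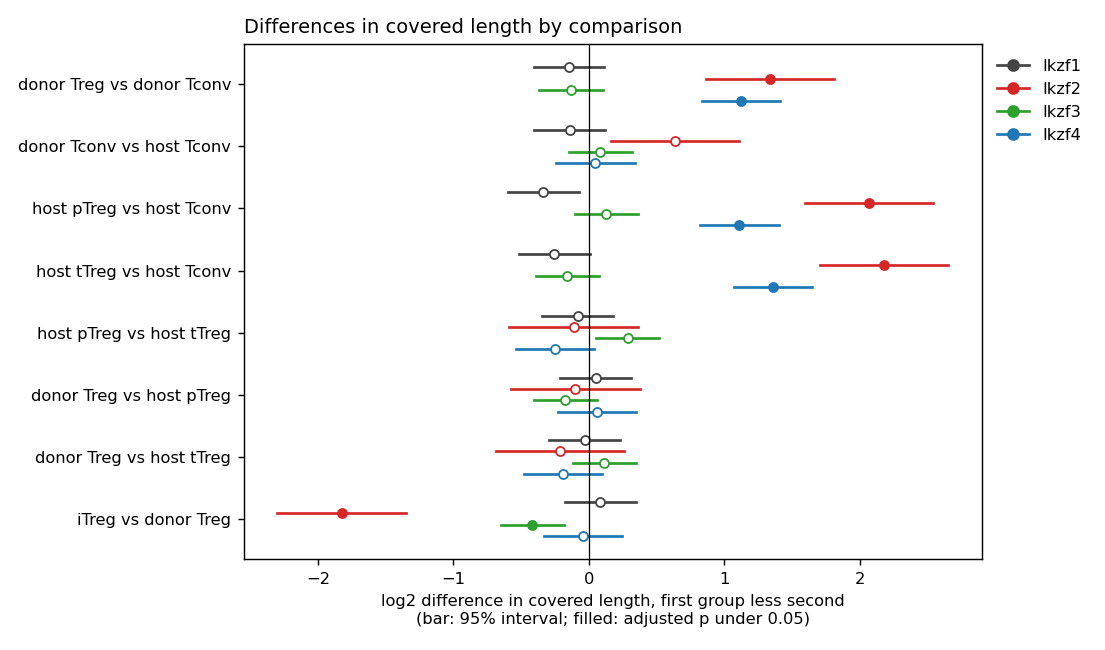
Log2 difference in covered length (horizontal axis, first group less second) for the 4 genes in 8 comparisons, with 95% intervals from limma; filled points have an adjusted p under 0.05. Ikzf2 and Ikzf4 lie right of 0 in the 3 comparisons of in vivo Treg with conventional cells, and Ikzf2 lies at -1.82 for iTreg against donor Treg.

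The 3 in vivo regulatory groups did not differ past the threshold at Ikzf2. The log2 difference was -0.11 between host pTreg and host tTreg (95% interval -0.59 to 0.36, limma), -0.10 between donor Treg and host pTreg (-0.57 to 0.38) and -0.21 between donor Treg and host tTreg (-0.68 to 0.26). These intervals leave room for differences of up to about the size of their bounds. In these comparisons 0.374%, 0.606% and 0.947% of all genes were called higher and 0.0415%, 0.839% and 0.465% lower. Donor Tconv lay above host Tconv by 0.64 (unadjusted p = 0.0131, adjusted p = 0.433, limma), where 0.216% of all genes were called higher and 0.0249% lower, and no family gene was called. At 1 Ikzf2 region both donor Tconv libraries and neither host Tconv library had a peak, and at none the reverse, where 4.4% and 0.557% of all regions with a peak in any of these 4 libraries did so. This comparison depended on 1 library. Without host Tconv replicate 2 the difference was 1.12 (adjusted p = 1.91e-04, limma), and host Tconv replicate 1, with a peak at 6 of the 34 regions against 12 in replicate 2, was the lowest of all libraries at Ikzf2. The excess of Treg over Tconv was larger in host than in donor cells by 0.85 (SE 0.31) for host tTreg and by 0.73 (SE 0.31) for host pTreg, at adjusted p = 0.303 and 0.379 (limma), so a difference between host and donor was not called, where 0.864% and 0.64% of all genes were.

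The openings that set in vivo Treg apart were spread along the whole gene. Of the 34 Ikzf2 regions, 26 lay in the body, 2 below its lower end and 6 above its upper end. A peak was present at 14 and 14 of them in donor Tconv, 6 and 12 in host Tconv, 19 and 21 in donor Treg, 26 and 23 in host pTreg, 19 and 24 in host tTreg, and 9 and 11 in iTreg. In vivo regulatory libraries carried more regions than any other library, again with no overlap. With 2 libraries against 2, 6 regions were open in both donor Treg and neither donor Tconv libraries and 2 in reverse, where 2.41% and 19.9% of all regions with a peak in any of the 4 were. For host pTreg against host Tconv the numbers were 10 and 1, where 5.51% and 11.5% of all regions were, and for host tTreg 8 and 1, against 3.86% and 15.2%. Without host Tconv replicate 2 the 10 and 8 became 16 and 13, and without host tTreg replicate 1 the 8 became 13. At 14 of the 34 regions a peak was seen in 1 or more in vivo regulatory libraries and in no other library, a pattern that held for 4.25% of all regions.

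**Figure D3:**
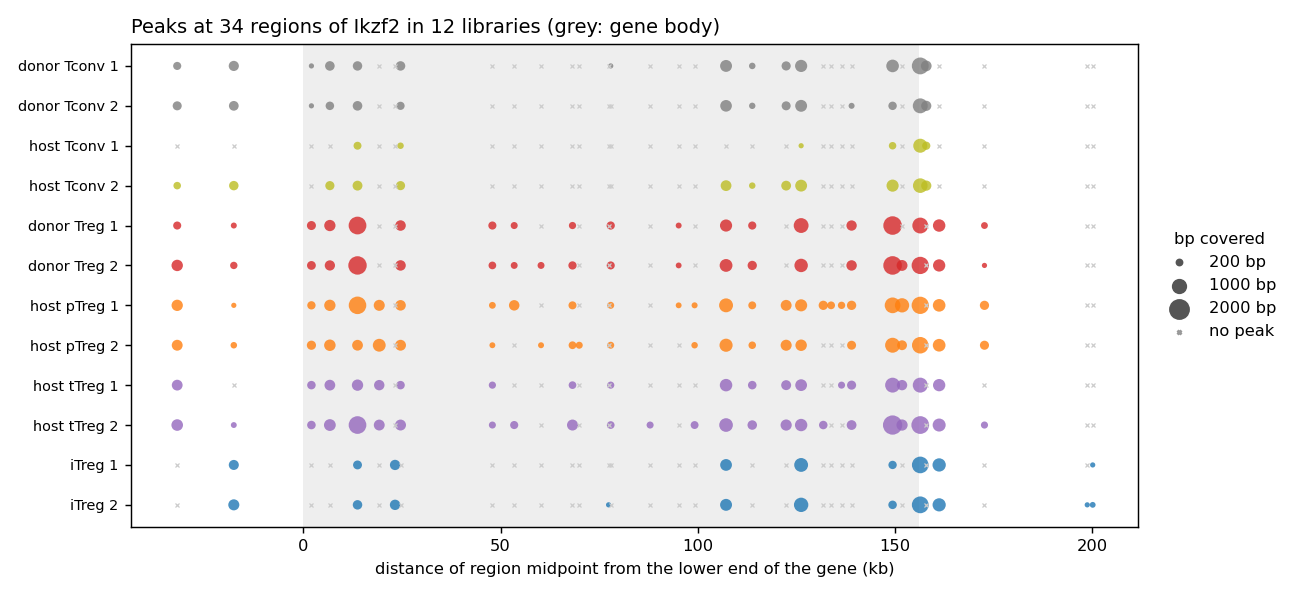
Peaks at the 34 Ikzf2 regions in the 12 libraries (rows), by distance of the region midpoint from the lower end of the gene (kb); point area is the number of bp covered, crosses are regions without a peak and grey marks the gene body. From 47.9 to 69.9 kb points lie in in vivo Treg rows only, and at 107.1 and 126.2 kb all groups carry points.

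A region 5029 bp above the upper end of Ikzf2, chr1:69691869-69692890, was open in every regulatory library and in no conventional one. It covered 857 and 834 bp in donor Treg, 880 and 890 bp in host pTreg, 839 and 936 bp in host tTreg, and 976 and 962 bp in iTreg. No other region of the family was open in all 8 regulatory and no conventional libraries, a pattern that 0.342% of all regions had. A region between it and the gene, chr1:69688788-69689424, 1755 bp above the upper end, had the reverse pattern, which 1.22% of all regions had, with 637 and 574 bp in donor Tconv, 376 and 578 bp in host Tconv and no peak in any of the 8 regulatory libraries. The region at the upper end itself, chr1:69686719-69688462, was open in all 12 libraries, from 1089 bp in host Tconv replicate 1 to 1744 bp in host tTreg replicate 2.

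In Fisher's exact test (two-sided) of 8 regulatory against 4 conventional libraries, adjusted over the 18887 regions whose smallest possible p was under 0.05, both of these regions passed the threshold (exact p = 0.00202, adjusted p = 0.0317). In the family 1 region was called more often open in regulatory libraries and 3 in conventional ones, where 1.39% and 4.98% of all tested regions were called. The other 2 were chr11:11715977-11717095 in the body of Ikzf1 and chr11:98479471-98480421 in the body of Ikzf3. Each called region had a peak in every library of its kind and in none of the other kind, the most extreme split possible. Leaving out 1 library raises the smallest p the test can give and also changes the adjustment over all tested regions. Leaving out donor Tconv replicate 1 or 2, host Tconv replicate 2 or any of the 6 in vivo regulatory libraries lowered both counts to 0. The share of these changes in the loss was not tested. Without host Tconv replicate 1 or either iTreg library the counts stayed at 1 and 3.

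Within the body of Ikzf2, chr1:69578939-69579302 and chr1:69599094-69599767 had a peak in all 6 in vivo regulatory libraries and in no other, as did 0.388% of all regions. The first covered 364 and 327 bp in donor Treg, 255 and 192 bp in host pTreg and 286 and 272 bp in host tTreg. The second covered 287 and 377 bp, 356 and 333 bp, and 326 and 667 bp in the same order. The smallest peak in any list is 150 bp. A further pair, chr1:69608918-69609326 and chr1:69669858-69670505, was open in the same 6 libraries and in 1 donor Tconv library each, at 150 and 199 bp.

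Donor and host Treg differed in presence at single Ikzf2 regions. The region chr1:69549975-69550906 in the gene body was open in the 4 host regulatory libraries, with 672 and 912 bp in host pTreg and 597 and 655 bp in host tTreg, and in no other, as were 0.118% of all regions. The region chr1:69653210-69653976 was open in host pTreg (655 and 674 bp), host tTreg (547 and 689 bp), both donor Tconv libraries (464 and 448 bp) and host Tconv replicate 2 (533 bp), and in neither donor Treg nor iTreg library. Against host pTreg, donor Treg lacked 3 regions that both pTreg libraries had, where 4.33% of all regions with a peak in any of the 4 libraries showed this, and had none in reverse, against 2.09%. Against host tTreg it lacked 2, against 1.4%, and had 1 in reverse, against 3.53%. Between host pTreg and host tTreg no Ikzf2 region split the libraries by group in either direction, where 3.35% and 0.452% of all regions did. With 2 libraries against 2 no test of presence per region can pass a threshold, so these counts carry none, and they moved with single libraries. Without host pTreg replicate 2 the 3 became 6, without host tTreg replicate 1 the 2 became 5, and without host tTreg replicate 2 the 1 became 4. Without host pTreg replicate 1, 2 regions were open in donor Treg only.

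iTreg lacked 12 of the regions that both donor Treg libraries had, of the 34, where 2.92% of all regions with a peak in any of the 4 libraries were in donor Treg only. It had 2 in reverse, where 34.7% of all regions were in iTreg only. Those 2 were chr1:69554140-69554758, at 585 and 596 bp, and chr1:69731211-69731397, at 150 and 187 bp, and both were open in no other library, as were 16.5% of all regions. The region chr1:69555488-69556185 was the reverse, open in all 10 in vivo libraries (232 to 661 bp) and in neither iTreg library, as were 0.636% of all regions. The iTreg lists were the longest of the series, and they still had the fewest Ikzf2 regions after host Tconv replicate 1.

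Peak width was compared at the 21435 regions with a peak in all 12 libraries, of which 4 were at Ikzf2, with limma on log2 width centred on each library's median. Near the lower end, chr1:69543991-69545872 covered 492 and 510 bp in donor Tconv, 349 and 539 bp in host Tconv, 1739 and 1874 bp in donor Treg, 1701 and 641 bp in host pTreg, 708 and 1726 bp in host tTreg, and 438 and 497 bp in iTreg. Near the upper end, chr1:69679538-69681608 covered 881 and 393 bp, 310 and 813 bp, 1898 and 1902 bp, 1365 and 1236 bp, 1227 and 2047 bp, and 385 and 400 bp in the same order. At both, every in vivo regulatory library was wider than every other library, although host pTreg replicate 2 and host tTreg replicate 1 came close to the conventional libraries at the first.

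The log2 width differences at the first region were 2.15 (SE 0.34, adjusted p = 0.00882, limma) for donor Treg against donor Tconv, 1.43 for host pTreg and 1.68 for host tTreg against host Tconv, and -2.37 for iTreg against donor Treg. At the second they were 1.99 (SE 0.34, adjusted p = 0.0124, limma), 1.53, 1.99 and -2.69. All 8 values passed the threshold, but without centring the 6 differences between Treg and Tconv kept their sign and lost their call. The donor call at the first region was also lost without donor Tconv replicate 1 or 2 or donor Treg replicate 1, and at the second without donor Tconv replicate 2 or donor Treg replicate 1 or 2. The host pTreg call was lost at the first without host pTreg replicate 1 or host Tconv replicate 1 or 2, and at the second without host pTreg replicate 1 or 2 or host Tconv replicate 1. The host tTreg call at the first was lost without host Tconv replicate 1 or host tTreg replicate 2. Both iTreg calls, and the host tTreg call at the second region, held without any single library. At the upper end of the gene chr1:69686719-69688462 was wider by 0.64 in host pTreg and by 0.71 in host tTreg than in host Tconv, and the donor value was 0.42 (adjusted p = 0.13, limma). Across the family, of 24 regions open in all libraries, 3 were called wider and 1 narrower in donor Treg than in donor Tconv, where 0.868% and 2.43% of all such regions were. The 3 became 1 without donor Tconv replicate 1 or donor Treg replicate 2, and 0 without donor Tconv replicate 2 or donor Treg replicate 1. For host pTreg against host Tconv 5 were wider and 1 narrower, where 4.66% and 3.76% of all such regions were, and for host tTreg 5 and 4, against 6.52% and 6.59%. The host pTreg counts became 1 wider without host Tconv replicate 1 or host pTreg replicate 1, 2 wider without host Tconv replicate 2 or host pTreg replicate 2, 3 narrower without host Tconv replicate 1, 2 narrower without either host tTreg library and 0 narrower without host pTreg replicate 2. The host tTreg counts became 3 wider without host Tconv replicate 1 or either host tTreg library, and 2 narrower without host Tconv replicate 2. Without centring no family region was wider in donor Treg, host pTreg or host tTreg, where 8, 97 and 171 of all 21435 such regions were. Between donor and host Tconv no family region was called, where 0.0653% of all such regions were wider in donor Tconv and 0.00467% narrower. In iTreg against donor Treg, 4 family regions were called wider and 4 narrower, where 7.99% and 8.4% of all such regions were.

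Past the 50 kb limit, 5 regions lay 65639 to 88419 bp above the upper end of Ikzf2, and 3 of them were open in all 12 libraries. The nearest, chr1:69752621-69753359, covered from 238 to 699 bp. The last region inside the limit on that side, chr1:69731211-69731397, is 43953 bp away. Among those outside, chr1:69774310-69774787, was open in both donor Treg libraries (308 and 474 bp) and in no other.

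Ikzf4 lies at chr10:128630839-128669671 (mm10) and encodes Eos, a partner of Foxp3. Its covered length rose in all 3 in vivo regulatory groups, and the iTreg libraries also lay above the conventional ones, a difference that was not tested. The scaled covered length was 1.49 and 1.44 kb in donor Tconv, 1.49 and 1.34 kb in host Tconv, 3.41 and 3.33 kb in donor Treg, 3.28 and 3.17 kb in host pTreg, 3.33 and 4.49 kb in host tTreg, and 3.37 and 3.16 kb in iTreg. The 4 conventional libraries lay below all 8 regulatory libraries. The regulatory libraries lay close together, with host tTreg replicate 2 apart at the top. The log2 difference was 1.12 (SE 0.13, adjusted p = 3.31e-04, limma) for donor Treg against donor Tconv. It was 1.11 (SE 0.13, adjusted p = 1.93e-04, limma) for host pTreg and 1.36 (SE 0.13, adjusted p = 3.62e-05, limma) for host tTreg against host Tconv. Without scaling, the first 2 kept their sign at 0.66 and 0.86 with adjusted p = 0.117 and 0.0821 (limma). iTreg against donor Treg gave -0.04 (95% interval -0.33 to 0.24, limma), and 0.76 without scaling (adjusted p = 0.0303, limma).

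The Ikzf4 region chr10:128641907-128643182 was open in all 6 in vivo regulatory libraries and in no other. It covered 613 and 575 bp in donor Treg, 424 and 448 bp in host pTreg and 381 and 1276 bp in host tTreg. The neighbouring region chr10:128644655-128647200, which holds the Gm26876 promoter window printed above, was open everywhere and widest in iTreg. It covered 444 and 409 bp in donor Tconv, 375 and 407 bp in host Tconv, 753 and 837 bp in donor Treg, 1168 and 504 bp in host pTreg, 348 and 724 bp in host tTreg, and 2334 and 2546 bp in iTreg. Host tTreg replicate 1 lay below all conventional libraries there, so host tTreg and conventional libraries overlapped. The width difference was 1.19 (SE 0.28, adjusted p = 0.0467, limma) for donor Treg against donor Tconv, 1.13 (adjusted p = 0.0319, limma) for host pTreg and 0.69 (adjusted p = 0.136, limma) for host tTreg against host Tconv. iTreg was wider than donor Treg by 1.20 (SE 0.28, adjusted p = 0.0166, limma), where 7.99% of all regions open in every library were called wider. The iTreg call was lost without any single one of the 4 libraries compared, the donor call without those compared or any single host Tconv or iTreg library, and the host pTreg call without host pTreg replicate 1 or either host Tconv library. Without centring the donor and host pTreg calls were lost as well (adjusted p = 0.257 and 0.258, limma).

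The other 2 Ikzf4 regions were chr10:128636478-128637873, open in all 12 libraries, and chr10:128663205-128664158, open in 11. The first ranged from 886 bp in host Tconv replicate 1 to 1396 bp in iTreg replicate 1, and was wider by 0.44 in host pTreg and 0.58 in host tTreg than in host Tconv (adjusted p = 0.0433 and 0.00882, limma), calls that were lost without centring and, for host pTreg, without most single libraries. The second covered 908 and 953 bp in iTreg, 567 bp in host tTreg replicate 2 and at most 275 bp in the other libraries, with no peak in host Tconv replicate 1.

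**Figure D4:**
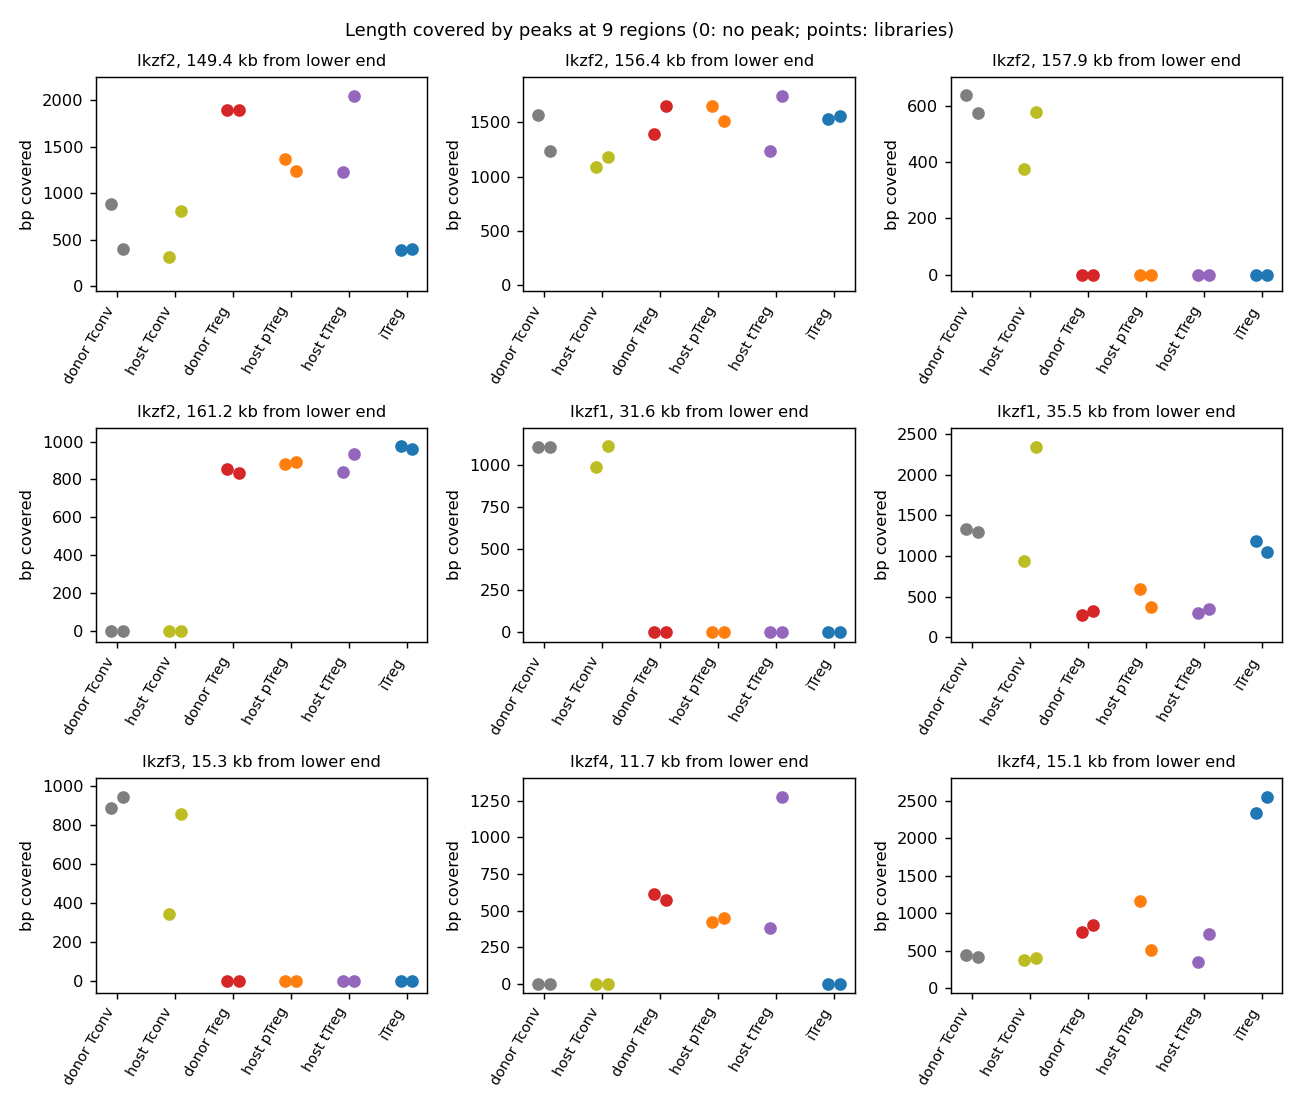
Length covered by peaks (bp, vertical axis; 0 is no peak) in the 6 groups at 9 regions of the family, titled by distance from the lower end of the gene; each point is a library. The Ikzf2 regions at 157.9 and 161.2 kb show opposite patterns, and the Ikzf4 region at 15.1 kb reaches 2546 bp in iTreg.

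Ikzf1 lies at chr11:11684962-11772930 (mm10) and encodes Ikaros. Its total covered length, scaled, did not pass the threshold in any comparison, while single regions inside it were narrower or missing in the in vivo regulatory libraries. The scaled covered length was 12.2 and 16.2 kb in donor Tconv, 14.7 and 16.3 kb in host Tconv, 13.1 and 12.3 kb in donor Treg, 12.9 and 11.6 kb in host pTreg, 13.6 and 12.4 kb in host tTreg, and 13.6 and 13.4 kb in iTreg. Donor Tconv replicate 1 lay within the range of the regulatory libraries and the other 3 conventional libraries lay above all of them. The log2 difference was -0.15 (95% interval -0.41 to 0.12, limma) for donor Treg against donor Tconv, -0.34 (adjusted p = 0.075) for host pTreg and -0.25 (adjusted p = 0.144) for host tTreg against host Tconv. With lists of equal length the host pTreg value was -0.45 and was called (adjusted p = 0.0336, limma). iTreg against donor Treg gave 0.09 (adjusted p = 0.568, limma), and without scaling 0.92 (adjusted p = 0.0159, limma).

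Of the 22 Ikzf1 regions, 10 were open in all 12 libraries, as were 27.9% of all regions. The region chr11:11684477-11687294, which holds the GC-rich promoter window, had no peak in donor Tconv replicate 1 and host Tconv replicate 2. It covered 2662 bp in donor Tconv replicate 2, 2529 bp in host Tconv replicate 1 and 1616 to 2794 bp in the 8 regulatory libraries. Each conventional group therefore held 1 library with a wide peak and 1 without any, and at this region its replicates differed by the whole width of the peak.

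Neighbouring regions 31574 and 35543 bp above the lower end of Ikzf1 separated conventional from in vivo regulatory cells. The region chr11:11715977-11717095 covered 1107 and 1109 bp in donor Tconv and 987 and 1113 bp in host Tconv, and had no peak in any regulatory library. Next to it, chr11:11719271-11721738 covered 1338 and 1296 bp in donor Tconv, 933 and 2347 bp in host Tconv, 270 and 317 bp in donor Treg, 593 and 375 bp in host pTreg, 303 and 343 bp in host tTreg, and 1187 and 1049 bp in iTreg. At the second region iTreg lay with the conventional libraries, above all in vivo regulatory ones, whereas at the first it lay with the regulatory libraries. The width difference at the second was -1.87 (SE 0.26, adjusted p = 0.00513, limma) for donor Treg against donor Tconv. It was -1.49 (adjusted p = 0.00645, limma) for host pTreg and -1.87 (adjusted p = 0.00134, limma) for host tTreg against host Tconv, and iTreg was wider than donor Treg by 1.52 (adjusted p = 0.0035, limma). The host pTreg call was lost without centring (-1.65, adjusted p = 0.0615, limma) and without host pTreg replicate 2, and the other 3 held without any single library.

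Further Ikzf1 regions were shared by conventional cells and iTreg, but each also had a peak in 1 in vivo regulatory library. No family region was open in all 4 conventional and both iTreg libraries and in no in vivo regulatory library, as were 3.21% of all regions. The region chr11:11667453-11668548, below the lower end, covered 316 to 797 bp in the conventional libraries, 1066 and 982 bp in iTreg and 150 bp in donor Treg replicate 1, with no peak in the other in vivo regulatory libraries. Inside the gene, chr11:11750062-11751594 covered 480 to 1492 bp in the conventional libraries, 547 and 503 bp in iTreg and 150 bp in host pTreg replicate 1 only among in vivo Treg. The regions chr11:11731084-11732075 (730 and 992 bp) and chr11:11765329-11765753 (425 and 411 bp) were open in both iTreg libraries and in no other, as were 16.5% of all regions. The region chr11:11694706-11696463 was open in both host tTreg libraries (525 and 1028 bp) and in iTreg replicate 2 (1758 bp). The region chr11:11669789-11670511 was open in both iTreg libraries (664 and 723 bp) and both host pTreg libraries (187 and 150 bp). No region of the other 3 genes, and no Ikzf1 region but chr11:11694706-11696463, was one that both host tTreg libraries had and both host pTreg libraries lacked. Of all regions with a peak in any of these 4 libraries, 0.452% were. In reverse, chr11:11669789-11670511 was the only such region of the family, where 3.35% of all regions were. Leaving out single libraries, the Ikzf1 counts ranged from 1 to 2 and, in reverse, from 1 to 3.

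**Figure D5:**
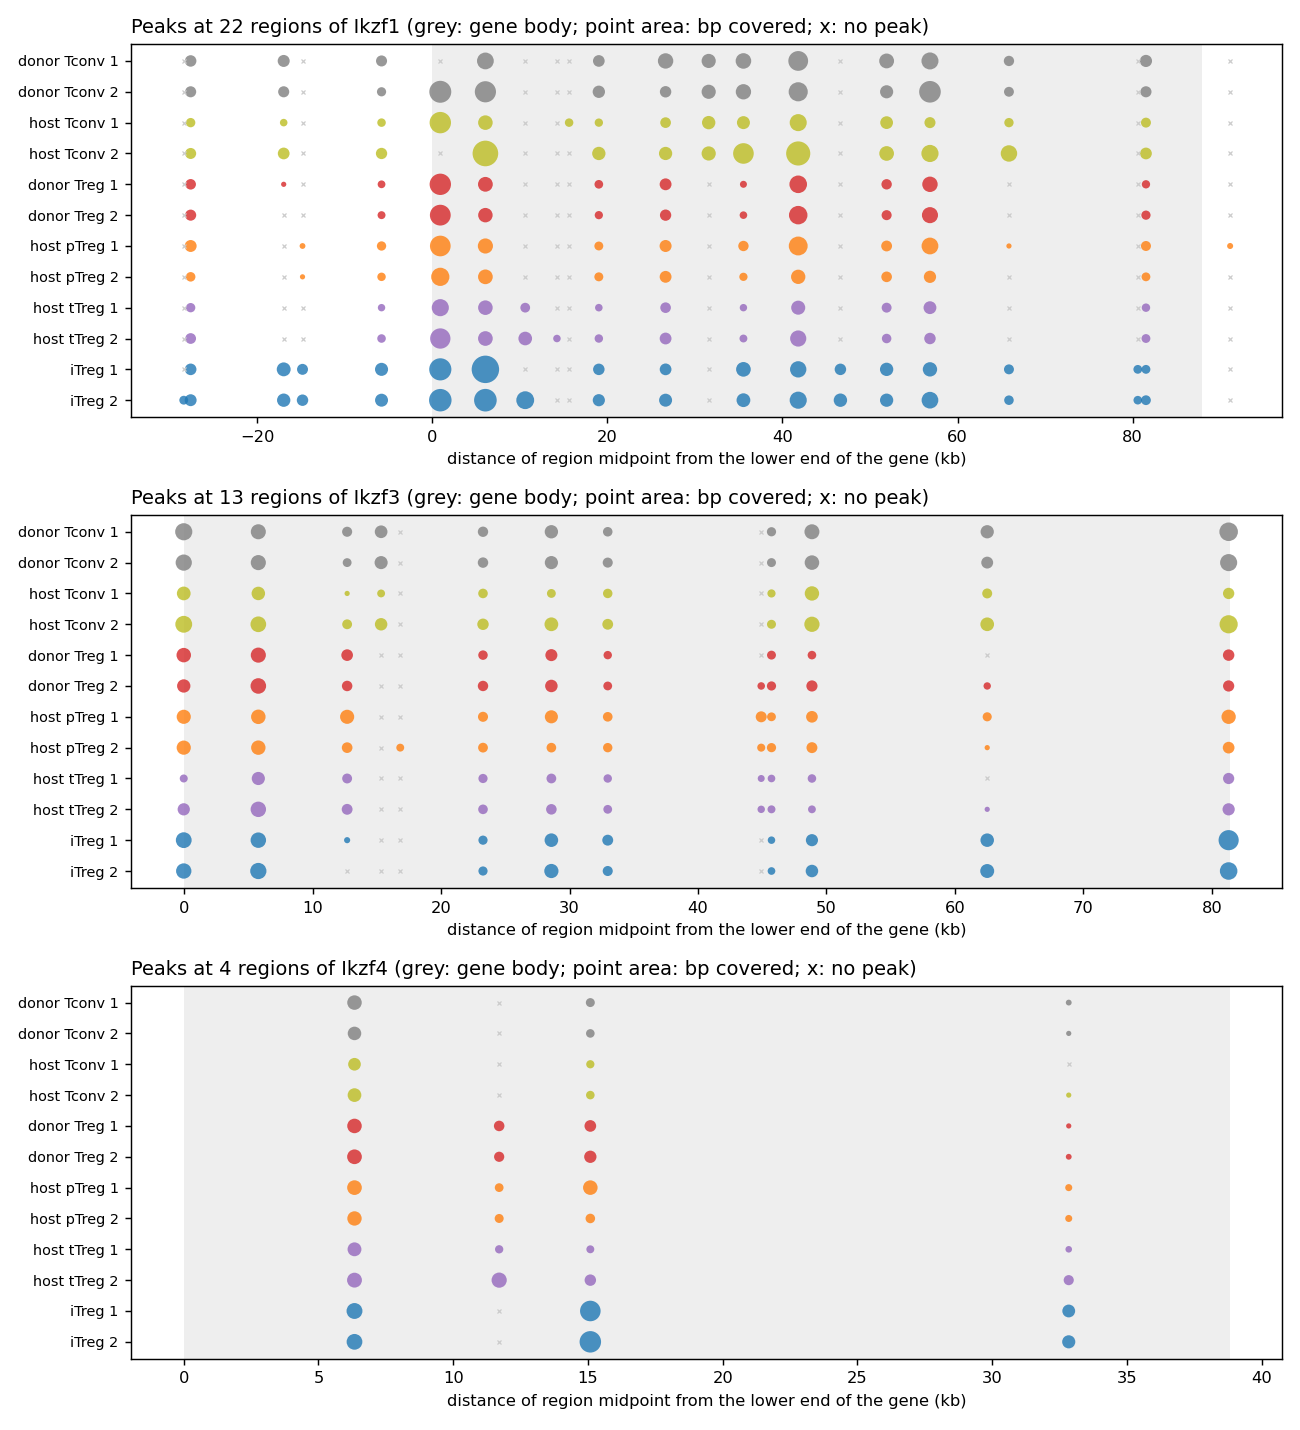
Peaks at the regions of Ikzf1, Ikzf3 and Ikzf4 in the 12 libraries (rows), by distance of the region midpoint from the lower end of the gene (kb); point area is the number of bp covered, crosses are regions without a peak and grey marks the gene body. Conventional rows alone carry a point at 31.6 kb of Ikzf1 and at 15.3 kb of Ikzf3, and in vivo Treg rows alone at 11.7 kb of Ikzf4.

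Ikzf3 lies at chr11:98464610-98546031 (mm10) and encodes Aiolos. Its covered length overlapped between conventional and in vivo regulatory libraries and was lower in iTreg. It was 9.14 and 9.36 kb in donor Tconv, 7.96 and 9.51 kb in host Tconv, 8.18 and 8.69 kb in donor Treg, 9.47 and 9.58 kb in host pTreg, 8.09 and 7.48 kb in host tTreg, and 6.86 and 5.75 kb in iTreg. iTreg lay below every other library, and the remaining groups overlapped. The log2 difference of iTreg against donor Treg was -0.42 (SE 0.11, adjusted p = 0.0097, limma), and it reversed to 0.41 (adjusted p = 0.176, limma) without scaling. Without donor Treg replicate 2 or iTreg replicate 2 the call was lost. Host pTreg against host tTreg gave 0.29 (unadjusted p = 0.02, adjusted p = 0.396, limma).

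Of the 13 Ikzf3 regions, 8 were open in all libraries. The region chr11:98479471-98480421 was open in conventional libraries only, at 888 and 947 bp in donor Tconv and 343 and 859 bp in host Tconv. The region chr11:98512838-98514122 covered 1145 to 1285 bp in the conventional libraries, 338 to 752 bp in the in vivo regulatory ones and 813 and 865 bp in iTreg. In bp as listed, before centring, the 3 sets did not overlap. After centring, its width difference of iTreg against donor Treg was 0.24 and was not called (adjusted p = 0.483, limma). Its width difference was -1.39 (SE 0.23, adjusted p = 0.00316, limma) for host tTreg against host Tconv, -0.88 (adjusted p = 0.0664, limma) for donor Treg against donor Tconv and -0.63 (adjusted p = 0.129, limma) for host pTreg against host Tconv. At the lower end of the gene chr11:98463772-98465394 was narrower in host tTreg (355 and 828 bp) than in host Tconv (1042 and 1567 bp), with a difference of -0.90 (adjusted p = 0.0276, limma) that lost its call without host tTreg replicate 1 or either host Tconv library. At the upper end chr11:98544795-98547035 covered 2241 and 1698 bp in iTreg and 725 and 697 bp in donor Treg, a difference of 1.04 (adjusted p = 0.0246, limma) that lost its call without either donor Treg library or iTreg replicate 1. Of the 8 Ikzf3 regions open in all libraries, 1 was thus called wider in iTreg than in donor Treg, and 2 were called narrower. The narrower ones were chr11:98510056-98510606 (-0.93, adjusted p = 0.00412, limma) and chr11:98487515-98488237 (-0.64, adjusted p = 0.017, limma). Without centring both narrower calls were lost (adjusted p = 0.0612 and 0.406, limma). The region chr11:98509199-98509864 was open in 5 of the 6 in vivo regulatory libraries (270 to 666 bp) and in no other.

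In the family, 2 of 4 genes (Ikzf2 and Ikzf4) were thus called higher in each comparison of in vivo Treg with conventional cells and none lower. Of all genes 6.39%, 9.19% and 11.4% were called higher in donor Treg, host pTreg and host tTreg, and 7.95%, 9.63% and 12.6% lower. For iTreg against donor Treg, none was called higher and 2 were called lower, where 15.6% and 30.3% of all genes were. Without scaling, 0 genes of the family were called higher in donor Treg, 1 in host pTreg and 2 in host tTreg, and for iTreg against donor Treg 2 were higher and 0 lower. Set against gene size, the body of Ikzf1 held 1.82 regions per 10 kb, that of Ikzf2 1.67, that of Ikzf3 1.47 and that of Ikzf4 1.03.

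Of 18 genes for complexes that Ikaros family proteins recruit, 16 could be tested. In donor Treg against donor Tconv none was higher and 1, Mbd2, was lower, where 6.39% and 7.95% of all genes were. In host tTreg against host Tconv 1 was higher and 2 were lower, where 11.4% and 12.6% of all genes were. Mbd2, the methyl-CpG binding subunit of NuRD, fell by 0.63 (SE 0.17, adjusted p = 0.0281, limma) in donor Treg, a call lost without any single one of the 4 libraries compared and with lists of equal length (adjusted p = 0.0682, limma), and by 0.91 (SE 0.17, adjusted p = 0.00229, limma) in host tTreg. Mta1, another NuRD subunit, gave -0.51 (adjusted p = 0.123, limma) and -0.81 (adjusted p = 0.0198, limma). The deacetylase gene Hdac2 gave 0.25 (adjusted p = 0.121) and 0.36 (adjusted p = 0.0295, limma), and reversed to -0.09 in host tTreg without scaling. The list's median difference was 0.191 in donor Treg and -0.069 in host tTreg, beside 0.129 and 0.077 over all genes tested.

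Of 17 factors that act beside Helios and Eos in regulatory T cells, 3 were higher and 4 lower in donor Treg than in donor Tconv, where 6.39% and 7.95% of all genes were. In host tTreg against host Tconv 4 were higher and 6 lower, where 11.4% and 12.6% of all genes were. In donor Treg the 3 became 1 without any single one of the 4 libraries compared, without scaling and with lists of equal length, and the 4 became 2 without donor Tconv replicate 2. Without scaling the 4 in host tTreg became 1. In that setting 37 of all 12040 genes were higher in donor Treg and 172 in host tTreg. Foxp3, the lineage factor of regulatory T cells, rose by 2.18 (SE 0.18, adjusted p = 3.54e-05, limma) in donor Treg and by 2.27 in host tTreg, and fell by 2.74 in iTreg against donor Treg. Satb1, a chromatin organiser, fell by 0.87 in donor Treg and by 1.99 in host tTreg. The naive T cell factor genes Lef1 and Tcf7 fell by 0.97 and 0.61 in donor Treg and by 1.52 and 1.43 in host tTreg. Gata3, the Th2 factor, rose by 0.42 and 0.49, and without scaling gave -0.07 and 0.01. The repressor gene Bach2 gave -0.18 (adjusted p = 0.163, limma) and -0.48 (adjusted p = 0.0021, limma), the latter with adjusted p = 0.051 (limma) without scaling, and Foxo3 gave -0.12 and -0.66. Nr4a1 gave 0.38 (adjusted p = 0.0332, limma) and 0.36 (adjusted p = 0.0253, limma). Runx1 gave -0.30 (adjusted p = 0.0402, limma) and -0.30 (adjusted p = 0.0277, limma), and Xbp1 0.28 (adjusted p = 0.0987, limma) and 0.44 (adjusted p = 0.0132, limma). The list's median difference was -0.015 in donor Treg and -0.066 in host tTreg.

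Of 14 genes known as targets of the family, 13 could be tested. In donor Treg against donor Tconv 2 were higher and 1 was lower, where 6.39% and 7.95% of all genes were, and in host tTreg against host Tconv 2 were higher and 3 lower, where 11.4% and 12.6% were. In donor Treg the 2 became 1 without donor Tconv replicate 1 or donor Treg replicate 2, and the 1 became 0 without any single one of the 4 libraries compared. Il2, the interleukin 2 gene, which Helios, Ikaros and Eos are known to repress, fell by 0.63 (SE 0.14, adjusted p = 0.0141, limma) in donor Treg and by 0.50 (SE 0.14, adjusted p = 0.0262, limma) in host tTreg. Il10 rose by 0.86 and 1.31, the former 0.38 without scaling (adjusted p = 0.322, limma), and Ifng gave -0.11 (adjusted p = 0.449, limma) and 0.45 (adjusted p = 0.00739, limma), the latter -0.02 without scaling. Cd4 rose by 0.61 (adjusted p = 0.0097, limma) in donor Treg, with 0.15 and adjusted p = 0.614 (limma) without scaling, and fell by 0.72 (adjusted p = 0.00217, limma) in host tTreg. Dntt, which encodes the terminal transferase, gave -0.14 and -0.68 in these comparisons. In iTreg against donor Treg 1 target was higher and 7 were lower, where 15.6% and 30.3% of all genes were. Without scaling 6 targets were higher and 1 lower in this comparison, where 6585 and 54 of all 12040 genes were. The list's median difference was 0.05 in donor Treg and 0.097 in host tTreg.

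The genes whose covered length most resembled Ikzf2 over the 12 libraries, among 4633 genes with at least 5 regions, were Klrg1 (Pearson's r = 0.987), Samsn1 (0.978), Il1rl1 (0.977), Mdfic (0.976) and Eps8l3 (0.974). The median over these genes was -0.138 and the 99th percentile 0.937. The points are libraries that fall into 2 sets, in vivo Treg and all others, and they share totals and group structure, so r describes that division and carries no p. Klrg1, a receptor of effector lymphocytes, covered 1.52 ± 0.037 kb (SD, n = 2) in donor Tconv, 0.786 ± 0.569 kb in host Tconv, 4.74 ± 0.28 kb in donor Treg, 5.63 ± 0.641 kb in host pTreg, 6.5 ± 0.663 kb in host tTreg and 0.708 ± 0.325 kb in iTreg. Il1rl1, which encodes the interleukin 33 receptor ST2, covered 1.32, 0.679, 3.2, 4.44, 4.43 and 1.06 kb on average in the same order. Against Ikzf2, r was -0.581 for Ikzf1 and 0.335 for Ikzf3.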

How the data were processed

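The tools named in the submitters' processing notes are Bowtie2 2.3.3, HOMER 4.10 and bedtools, with the build mm10; for their roles, settings and any Tn5 shift, the sources used here give nothing. The deposited lists, 1 per library, give position, a name and a score that the authors set to 1000 for every peak, so position and width are the data. List names speak of an intersection that is not explained. Groups came from the sample titles, and nothing states that replicates come from separate mice, so p-values measure only how far these samples vary, and that variation may be technical.

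Genes came from a RefSeq table (GRCm38.p6, the coordinates of mm10, no strand); 89.9% of regions were assigned. Coordinates count from 1. limma 3.58.1 (R 4.3.3) fitted 6 group means over all 12 libraries, with empirical Bayes moderation and trend, two-sided; Fisher's exact tests used scipy 1.17.1. Both were tested on simulated data. The threshold was an adjusted p of 0.05. Alternatives were a pseudocount of 500 bp, no filter, no scaling or centring, the 28394 widest peaks of each list, all RefSeq genes, a 20 kb limit, merging at 100 bp, a replicate block and leaving out each library; the contrast of host with donor differences was added after the data were seen.

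Always named were the 4 genes, the 5 genes most like Ikzf2 and, of 3 lists, the genes past the threshold in donor Treg or host tTreg. Lists came from general knowledge. The members and lists were chosen with earlier results of these data known.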

Additional observations from a re-analysis of the deposited data

Results flagged for a closer look

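Among genes that act beside the family or are its known targets, 5 effects differed between host and donor cells in a test of the difference itself, a contrast chosen after the data were seen (limma, adjusted over all 12040 genes), 3 for host tTreg and 2 for host pTreg, where 0.864% and 0.64% of all genes were called. The 4 family genes had none past the threshold. Satb1 covered length fell more from Tconv to tTreg in host cells (-1.99) than from Tconv to Treg in donor cells (-0.87), a difference of -1.12 (SE 0.16, adjusted p = 0.0124, limma). Tcf7 differed by -0.81 for host tTreg (SE 0.16, adjusted p = 0.0467, limma; host -1.43, donor -0.61) and by -0.87 for host pTreg (SE 0.16, adjusted p = 0.0375, limma; host -1.48, donor -0.61). Cd4 went opposite ways, with -0.72 in host tTreg and 0.61 in donor Treg, a difference of -1.33 (SE 0.18, adjusted p = 0.0092, limma). Tbx21, the Th1 factor gene, was higher in host pTreg (1.06) and gave -0.28 in donor Treg, a difference of 1.34 (SE 0.26, adjusted p = 0.0461, limma).

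Without 1 library at a time Satb1 kept its call in 9 of 12 fits, Cd4 in 10, and both Tcf7 differences and Tbx21 in 4 each. Without scaling none was called, with differences of -1.09 (Satb1), -0.80 and -0.65 (Tcf7), -1.28 (Cd4) and 1.55 (Tbx21). With lists of equal length both Tcf7 calls (adjusted p = 0.0655 and 0.0657, limma) and the Tbx21 call (0.93, adjusted p = 0.209, limma) were lost, and Satb1 (-1.14) and Cd4 (-1.28) kept theirs. Host regulatory libraries carry another run code than the donor and host Tconv libraries, and the 2 cannot be told apart.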

How the results depend on the processing

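The Ikzf2 calls for host pTreg and host tTreg against host Tconv held under all alternatives run, at 1.59 to 2.55 and 1.70 to 2.66 (limma), with both extremes of host pTreg and the highest of host tTreg from leaving out a host Tconv library. Without scaling to the library total, the Ikzf2 difference was 0.85 for donor Treg against donor Tconv (adjusted p = 0.175, limma) and -0.999 for iTreg against donor Treg (adjusted p = 0.0542, limma), and its host pTreg against host tTreg value reversed to 0.10. The same setting reversed the Ikzf1 values of donor Tconv against host Tconv (0.0479), host pTreg against host tTreg (0.13) and donor Treg against host tTreg (0.14), the Ikzf3 values of host pTreg against host Tconv (-0.14) and iTreg against donor Treg (0.41), and the Ikzf4 value of iTreg against donor Treg (0.76). Equal lists made the last 0.36, and assignment to all RefSeq genes made the Ikzf1 value of iTreg against donor Treg -0.0496. Unscaled, the number of the 4 genes higher was 0 in donor Treg and 1 in host pTreg, where 37 and 144 of all 12040 genes were. For iTreg against donor Treg 2 were then higher and 0 lower, where 6585 and 54 of all genes were. With equal lists 1 gene was lower in host pTreg and 1 in iTreg, where 944 and 1649 of all 11406 genes were.

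Width calls depended most on the settings. Without centring, 0 family regions were wider in donor Treg and 3 narrower, 0 were wider and 0 narrower in host pTreg, 0 were wider in host tTreg, and 2 were narrower in iTreg than in donor Treg. Of all 21435 regions, 8 were then wider and 295 narrower in donor Treg, and 97 and 270 in host pTreg. In host tTreg 171 were wider, and in iTreg 240 were narrower. With equal lists, 0 were wider in donor Treg, 3 in host pTreg and 2 in host tTreg, and 0 were narrower in iTreg. Fewer regions were then open in all libraries, and how much of the loss came from this was not tested. Of all 16719 such regions 77, 481 and 766 were wider in these groups, and 986 were narrower in iTreg. With the 6 in vivo regulatory libraries alone, 4 regions were called by Fisher's exact test as more often open in regulatory libraries. The share of all tested regions called in this setting was not computed, so the count cannot be judged against it. With equal lists the Ikzf2 regions in both donor Tconv and neither host Tconv libraries numbered 0, those in host tTreg and not host pTreg 1, those in donor Treg and not host pTreg 1, and those in donor Treg and not host tTreg 0. Those in iTreg and not donor Treg numbered 1 with a 20 kb limit and 1 with all RefSeq genes.

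Leaving out each library in turn, the Ikzf2 difference of donor Tconv against host Tconv ranged from 0.16 to 1.12, and the number of the 4 genes from 0 to 1 (higher in donor Tconv), 0 to 1 (lower in host pTreg than in host Tconv) and 1 to 2 (lower in iTreg). Signs of values under the threshold reversed for Ikzf1 in donor Treg against donor Tconv (-0.35 to 0.0580), donor Tconv against host Tconv (-0.34 to 0.0649), donor Treg against host pTreg (-0.0202 to 0.12) and donor Treg against host tTreg (-0.10 to 0.0341, with 0.01 without donor Treg replicate 2). They reversed for Ikzf3 in donor Tconv against host Tconv (-0.0390 to 0.21), and for Ikzf4 in donor Tconv against host Tconv (-0.0207 to 0.12), donor Treg against host tTreg (-0.40 to 0.0194) and iTreg against donor Treg (-0.0892 to 0.0006). Wider regions ranged from 0 to 3 in donor Treg, 1 to 5 in host pTreg, 3 to 5 in host tTreg and 2 to 6 in iTreg, and from 0 to 1 in donor Tconv against host Tconv, host pTreg against host tTreg and donor Treg against host tTreg. Narrower ones ranged from 1 to 3 in donor Treg, 0 to 3 in host pTreg and 2 to 4 in host tTreg. Of 27 width calls in the family, 10 held without any single library. The Fisher's exact test counts ranged from 0 to 1 and from 0 to 3. Ikzf2 regions by presence ranged from 1 to 7 in donor Tconv and not host Tconv, 10 to 16 in host pTreg and 8 to 13 in host tTreg and not host Tconv. They ranged from 0 to 3 in host pTreg and not host tTreg, 0 to 1 in reverse, 0 to 2 in donor Treg and not host pTreg, 3 to 6 in reverse, 1 to 4 in donor Treg and not host tTreg, 2 to 5 in reverse, and 2 to 4 in iTreg and not donor Treg.

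Same-numbered replicates did not deviate together. Over 15 pairs of groups the correlation of their deviations had a median of -0.0231 and ran from -0.312 to 0.244 for covered length. No pairing by number was thus seen, but a median over all pairs cannot exclude pairing between some groups. With the replicate number as a block the Ikzf2 differences kept their values (1.34, 2.07, 2.18 and -1.82) and calls. The wider regions numbered 2 in donor Treg and 4 in host pTreg, since both Ikzf4 calls nearest the threshold were lost. Depth is unknown, so what it limits cannot be stated beyond the range of list lengths.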
